A study of Mus musculus with 21 samples.

Results

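The genes described here are the 7 subunits of respiratory complex I that are encoded in mitochondrial DNA, namely mt-Nd1, mt-Nd2, mt-Nd3, mt-Nd4l, mt-Nd4, mt-Nd5 and mt-Nd6. They were chosen by their GENCODE mouse symbols, and all 7 were present among the 5544 genes of the deposited table. RNA-seq was performed on cortical tissue of male C57BL/6 mice aged 12 weeks, collected 24 h after the end of the procedure. The HF-HI group (11 libraries) had received repeated head impacts daily over several days under isoflurane anaesthesia, and the sham group (10 libraries) had the anaesthesia without the impacts. The labels name no transgene and no drug for either group. Each library was labelled as a separate replicate, but the labels do not tie libraries to animals, so p-values measure the spread between these libraries. The comparison asks how the mRNAs of the mitochondrial complex I genes differed between HF-HI and sham cortex, how they varied together from library to library, and how mt-Nd6 behaved beside the other members.

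Complex I is NADH:ubiquinone oxidoreductase, the entry point of electrons into the respiratory chain. Its membrane arm is built around the mitochondrially encoded subunits, and its remaining subunits are made from nuclear genes and imported. Mitochondrial DNA is read from both strands into long precursor RNAs that are cut into single messengers, mostly at the tRNAs between them, so genes of one strand begin as parts of the same transcript. mt-Nd6 is the member read from the light strand, and mt-Nd4l and mt-Nd4 stay together on one messenger. Neurons depend heavily on this chain for the energy of synaptic transmission.

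All 7 genes lie on the mitochondrial chromosome (GENCODE vM21, GRCm38, the same assembly as mm10), each as a single exon. The members on the plus strand held at least 22.1% C and at most 11.6% G in their transcripts, whereas mt-Nd6 on the minus strand held 5.97% C and 28.1% G. Their GC content ran from 33.0% in mt-Nd3 to 41.1% in mt-Nd4l, against a median of 47.6% over the genes of the table. The opening 60 bases of 3 members are shown because they make this difference visible: mt-Nd1 had one of the largest increases, mt-Nd3 was the only member that fell, and mt-Nd6 comes from the other strand. They are read 5′ to 3′ along each messenger, with the first codon in capitals, and span chrM:2751-2810 on the plus strand, chrM:9459-9518 on the plus strand and chrM:14011-14070 on the minus strand.
mt-Nd1: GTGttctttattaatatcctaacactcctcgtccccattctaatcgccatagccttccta
mt-Nd3: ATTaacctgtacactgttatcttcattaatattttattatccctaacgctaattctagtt
mt-Nd6: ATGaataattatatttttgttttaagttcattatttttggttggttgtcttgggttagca

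Members also overlapped one another at 2 places, which matters for how reads are assigned. The last 7 bases of mt-Nd4l are the first 7 of mt-Nd4 on the same strand, shown in capitals at the end of the former (chrM:10144-10173) and the start of the latter (chrM:10167-10196).
mt-Nd4l end: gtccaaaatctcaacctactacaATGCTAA
mt-Nd4 start: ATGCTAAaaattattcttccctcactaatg
The ends of mt-Nd5 (chrM:13536-13565, plus strand) and mt-Nd6 (chrM:13552-13581, minus strand) face each other and share 14 bases on opposite strands, in capitals below, each read along its own messenger.
mt-Nd5 end: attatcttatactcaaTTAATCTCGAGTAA
mt-Nd6 end: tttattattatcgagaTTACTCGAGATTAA
The libraries were made with a stranded kit, but the sources used here do not state whether strand was used in counting. Without it, reads of a member and of RNA from the opposite strand cannot be told apart.

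Several properties of whole libraries differed between the groups and are given before the results. Depth relative to the median library, estimated from the spacing of the values, ran from 0.580 to 1.26 in sham and from 0.548 to 1.64 in HF-HI, with HF-HI replicates 11 and 9 the shallowest of all. The slope of the values on GC content, in log2 units per 10 percentage points, ran from −0.231 to 0.006 in sham and from −0.039 to 0.161 in HF-HI. The value of Gm42418, which overlaps the nuclear ribosomal RNA repeat, ran from 8.17 to 12.39 in sham and from 10.14 to 17.49 in HF-HI, and HF-HI replicate 9 held the highest value. Within HF-HI it fell into 2 separate sets, of 6 libraries up to 10.76 and of 5 libraries from 13.17. Cell type markers are set against the whole table, where 32.6% of genes were higher and 33.6% lower at an adjusted p under 0.05. Of the markers listed, 7 of 12 neuronal genes were higher and 1 was lower in HF-HI. Their summed value ran from 16.70 to 16.81 in sham and from 16.81 to 16.94 in HF-HI. Among astrocyte markers 4 of 9 were higher and 2 lower, and among oligodendrocyte markers 3 of 8 tested were higher and none was lower. Only 2 of 9 microglial, 2 of 7 endothelial, 2 of 5 choroid plexus and 2 of 5 red blood cell markers were among the genes tested, with 1 higher and 1 lower for each of the first pair of lists and none past the threshold for the others. The part that these properties had in the results was not tested unless a value is given beside a result. In whole cortex, fewer cells of a type and less RNA per cell cannot be told apart.

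Of the 7 members, 5 were higher and 1 was lower in HF-HI than in sham at an adjusted p under 0.05, and mt-Nd6 did not pass (limma over all 5544 genes, two-sided, Benjamini-Hochberg adjusted, HF-HI minus sham). Over all genes tested, 32.6% were higher and 33.6% were lower by the same rule, so a large share of the table differed between the groups. The median difference of the members was 0.64 log2 units, against −0.0086 over all genes. Of the 705 genes outside mitochondrial DNA whose GC content lay within the members' range, 41 were higher and 450 were lower, with a median difference of −0.16. What part GC content had in the differences of the members was not tested by this count. The counts of 5 higher and 1 lower were also obtained with each library left out in turn.

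The proton-pumping subunits of the membrane arm, mt-Nd2, mt-Nd4 and mt-Nd5, were all higher in HF-HI. For mt-Nd2, variance-stabilized values, which are on a log2 scale, ran from 11.75 to 12.81 with a median of 12.35 in sham, and from 13.10 to 14.11 with a median of 13.40 in HF-HI. The ranges did not overlap. The means were 12.32 ± 0.362 (SD, n = 10) and 13.49 ± 0.333 (SD, n = 11), a difference of 1.17 log2 units (SE 0.138, limma adjusted p = 1.86e-07) or 2.25-fold, the 15th largest absolute difference in the table.

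mt-Nd4 ran from 13.48 to 14.01 (median 13.74) in sham and from 14.08 to 14.83 (median 14.33) in HF-HI. These ranges did not overlap either, and 3 HF-HI libraries, replicates 3, 4 and 11, stood apart at 14.66 or above. The difference was 0.64 log2 units (SE 0.0898, limma adjusted p = 1.96e-06), or 1.56-fold. mt-Nd5 ran from 12.77 to 13.41 (median 12.92) in sham and from 13.12 to 14.03 (median 13.45) in HF-HI. Here 7 of 11 HF-HI libraries lay above the highest sham library and all 11 lay above the sham median. The difference of 0.59 log2 units (SE 0.106, limma adjusted p = 4.16e-05) was 1.51-fold.

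The members at the ubiquinone site, mt-Nd1 and mt-Nd3, went in opposite directions. mt-Nd1, whose product forms much of the channel through which ubiquinone enters, ran from 13.47 to 14.34 (median 13.88) in sham and from 14.67 to 15.25 (median 14.85) in HF-HI. No HF-HI library reached down to the sham range. The difference was 1.03 log2 units (SE 0.0877, limma adjusted p = 2.24e-09), or 2.04-fold, and ranked 31st in absolute size over the table. Non-overlap with HF-HI above was thus found for mt-Nd1, mt-Nd2 and mt-Nd4, 3 of the 7 members, against 8.71% of all genes.

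mt-Nd3, which carries a flexible loop beside that site, ran from 14.20 to 14.56 (median 14.39) in sham and from 13.97 to 14.42 (median 14.20) in HF-HI. The ranges overlapped, with 6 of 11 HF-HI libraries below the lowest sham library and 10 below the sham median. The difference was −0.18 log2 units (SE 0.0530, limma adjusted p = 0.00528), or 0.884-fold. This decrease was no longer called once each library's trend on GC content was removed, where the difference was 0.032 (adjusted p = 0.709), or with the value of Gm42418 as a covariate, where it was −0.095 (adjusted p = 0.128).

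The remaining members, mt-Nd4l and mt-Nd6, sit between the ubiquinone site and the pumping subunits, and had the lowest and most scattered values. mt-Nd4l ran from 7.99 to 9.43 (median 8.99) in sham and from 8.76 to 10.56 (median 9.41) in HF-HI. Of the HF-HI libraries, 5 lay above the sham range and 10 above the sham median, and the difference was 0.71 log2 units (SE 0.184, limma adjusted p = 0.00179), or 1.64-fold.

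mt-Nd6 ran from 8.85 to 10.82 (median 9.87) in sham and from 9.36 to 12.33 (median 10.27) in HF-HI. A single HF-HI library, replicate 9, lay above the sham range, and 6 of 11 lay above the sham median. The means were 9.88 ± 0.719 (SD, n = 10) and 10.20 ± 0.833 (SD, n = 11), and the difference of 0.32 log2 units had a 95% interval from −0.32 to 0.96 (limma adjusted p = 0.367). A difference as large as that of mt-Nd4 or mt-Nd5 therefore lay within the interval, as did no difference. Without HF-HI replicate 9 it was 0.11. The call and the direction both moved with library properties: with relative depth as a covariate the difference was 0.74 (adjusted p = 0.00859), and with the value of Gm42418 as a covariate it was −0.44 (adjusted p = 0.0737). The latter fit draws one line through HF-HI libraries that lie in 2 sets on Gm42418.

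**Figure D1:**
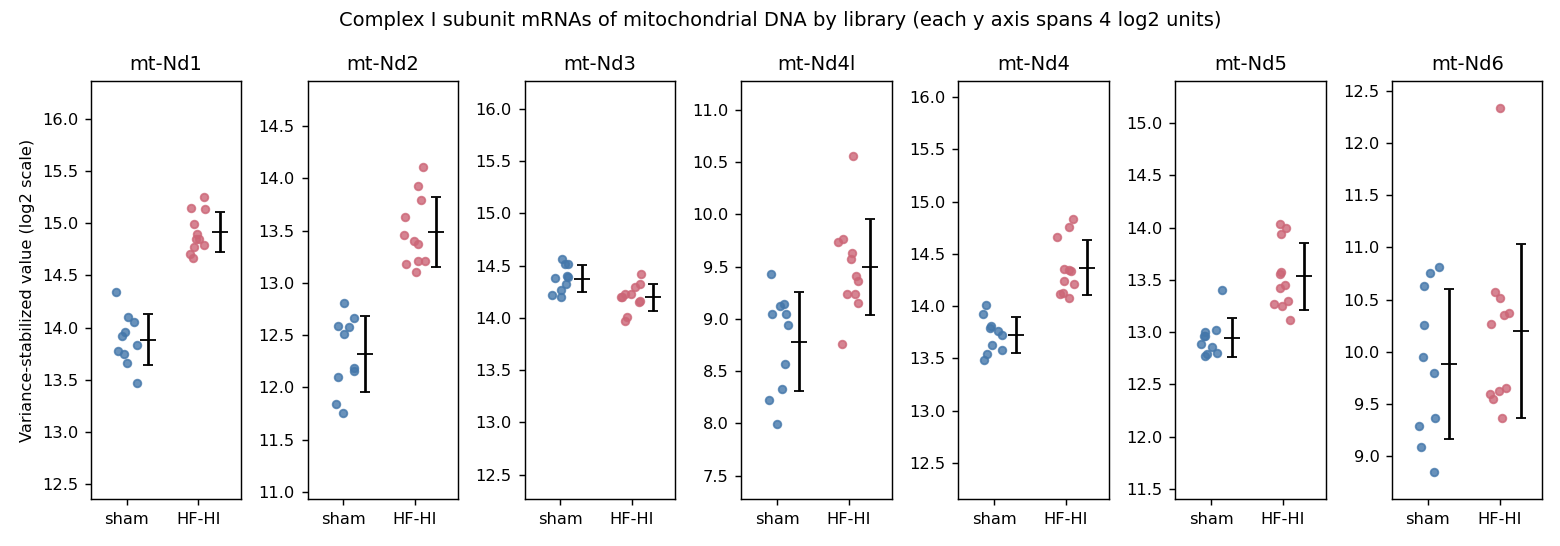
Variance-stabilized values (log2 scale) of the 7 members in each sham and HF-HI library, where each point is a library and the bar is the mean ± SD of 10 sham or 11 HF-HI libraries. The groups are separate for mt-Nd1, mt-Nd2 and mt-Nd4, mt-Nd3 is slightly lower in HF-HI, and mt-Nd6 overlaps widely, with HF-HI replicate 9 at 12.33.

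The SD within groups varied widely between the members. It was 0.128 for mt-Nd3 and 0.219 for mt-Nd1, rising to 0.347 for mt-Nd2, 0.467 for mt-Nd4l and 0.781 for mt-Nd6, against a median of 0.104 over all genes. The SD of mt-Nd6 was larger than that of 99.7% of the genes in the table.

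The other genes of mitochondrial DNA gave the setting for these differences. Their calls stand beside 32.6% of all genes higher and 33.6% lower in HF-HI. Of the 6 mRNAs of complexes III, IV and V, 4 were higher (mt-Cytb by 0.92, mt-Atp8 by 1.04, mt-Atp6 by 0.58 and mt-Co2 by 0.32 log2 units), mt-Co3 was lower at −0.10 (0.037 with the GC trend removed, adjusted p = 0.282), and mt-Co1 at 0.03 did not pass (adjusted p = 0.232). Both mitochondrial ribosomal RNAs were higher, mt-Rnr1 by 3.32 and mt-Rnr2 by 1.24 log2 units, in libraries from which ribosomal RNA had been removed. Along the chromosome, the 2 members next to the ribosomal RNA genes had the largest differences of the 7, and mt-Nd3 beside mt-Co3 had the lowest.

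**Figure D2:**
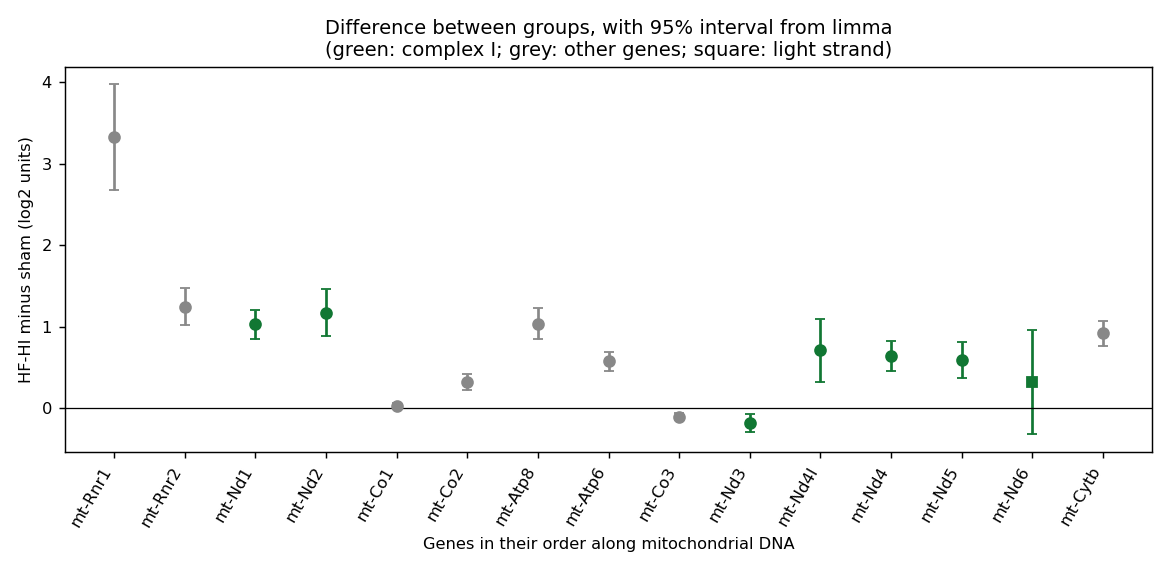
Difference between HF-HI and sham (log2 units, HF-HI minus sham) for the 15 mitochondrial genes of the table, ordered as on the chromosome, with 95% intervals from limma; green marks complex I, grey the other genes and the square the light-strand gene. mt-Nd1 and mt-Nd2 lie near 1, mt-Nd4l, mt-Nd4 and mt-Nd5 between 0.59 and 0.71, mt-Nd3 just below 0, and the interval of mt-Nd6 spans 0.

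Whether the members differed by the same amount was tested on the difference between 2 members within each library, in which scaling of the library cancels. Among all 21 pairs, tested by permutation with 100000 resamples (two-sided) and adjusted over the 21, 11 had a different size of change at an adjusted p under 0.05. mt-Nd1 and mt-Nd2 moved further than mt-Nd4 and mt-Nd5. The excess of mt-Nd1 over mt-Nd4 grew from 0.16 ± 0.195 in sham to 0.55 ± 0.182 in HF-HI, a change of 0.39 (permutation adjusted p = 0.00072), with all 11 HF-HI libraries above the sham median. mt-Nd2 gained 0.53 on mt-Nd4 (permutation adjusted p = 7e-05, from the smallest p that the resamples can give) and 0.58 on mt-Nd5 (permutation adjusted p = 8.4e-05). Between mt-Nd1 and mt-Nd2 the change was −0.14 (permutation adjusted p = 0.257), and for mt-Nd1 minus mt-Nd4l it was 0.32 (SE 0.204, permutation adjusted p = 0.214).

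mt-Nd3 parted from every other plus-strand member. The difference between mt-Nd1 and mt-Nd3 went from −0.49 ± 0.296 in sham to 0.72 ± 0.263 in HF-HI, with the lowest HF-HI library at 0.29 and the highest sham library at −0.059. That change of 1.21 had a permutation adjusted p of 7e-05. Against mt-Nd4l, its neighbour on the chromosome, the change of mt-Nd3 was −0.89 log2 units (permutation adjusted p = 0.00329), and against mt-Nd4 and mt-Nd5 it was −0.82 and −0.77 (permutation adjusted p = 8.4e-05 and 0.000455). Among mt-Nd4l, mt-Nd4 and mt-Nd5 no pair passed. The change was 0.05 for mt-Nd4 minus mt-Nd5 (SE 0.0386, permutation adjusted p = 0.257), 0.07 for mt-Nd4l minus mt-Nd4 (SE 0.180, permutation adjusted p = 0.727) and 0.12 for mt-Nd4l minus mt-Nd5 (SE 0.181, permutation adjusted p = 0.565). The wider SEs of the mt-Nd4l pairs leave room for changes several times as large as these.

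The light-strand member was compared with each of the others in the same way. mt-Nd6 minus mt-Nd2 went from −2.44 ± 0.407 in sham to −3.29 ± 0.706 in HF-HI, a change of −0.85 (permutation adjusted p = 0.00899) with 10 of 11 HF-HI libraries below the sham median and HF-HI replicate 9 the exception. Against mt-Nd1 the change was −0.71 (permutation adjusted p = 0.0531), which was not past the threshold with all libraries and was −0.90 and past it when HF-HI replicate 9 was left out. The changes against mt-Nd4l (−0.39), mt-Nd4 (−0.32), mt-Nd5 (−0.27) and mt-Nd3 (0.50) did not pass, with SEs between 0.275 and 0.381. Without HF-HI replicate 9 the first 3 of these became −0.58, −0.55 and −0.50 and passed the threshold. With the trend on Gm42418 removed within groups, by a line through the same 2 sets of HF-HI libraries, the change of mt-Nd6 was −0.99 against mt-Nd4 (permutation adjusted p = 0.000443), −0.91 against mt-Nd5 and −1.36 against mt-Nd1, and it became −0.35 against mt-Nd3 (permutation adjusted p = 0.163).

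Library by library, the members varied together in a structured way. Pearson and Spearman correlations were computed within each group for the 21 pairs, with p by permutation adjusted over the 42 tests. In sham, 11 pairs were past an adjusted p of 0.05 by Pearson, of which 8 were positive and 3 negative, and 9 of the 11 were past it by Spearman as well. All 3 negative pairs held mt-Nd3, which correlated with mt-Nd6 at r = −0.846 (rho −0.794, n = 10, permutation adjusted p = 0.0137 and 0.0306) and at −0.828 without the 2 libraries farthest from the median of mt-Nd3. In HF-HI, 7 pairs were past the threshold by Pearson, all positive, and 5 of the 7 were past it by Spearman as well. With the trend on GC content removed, 5 pairs remained past the threshold in sham.

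mt-Nd4 and mt-Nd5, which follow each other on the plus strand, were the most tightly linked pair in HF-HI, with r = 0.985 (rho 0.973, n = 11, permutation adjusted p = 0.00042). In sham r was 0.852 (rho 0.891, n = 10, permutation adjusted p = 0.00302), and without the 2 farthest libraries it was 0.930 in sham and 0.974 in HF-HI. Because HF-HI replicates 3, 4 and 11 stood apart on mt-Nd4, r was also computed over the other 8 HF-HI libraries, where it was 0.929 (exact permutation test, adjusted p = 0.0106). Over all 21 libraries, ranking every gene by the correlation of its deviations from the group mean, mt-Nd4 and mt-Nd5 were each other's nearest gene in the whole table (r = 0.950).

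mt-Nd1 and mt-Nd2 formed the next pair, with r = 0.938 in HF-HI (rho 0.900, n = 11, permutation adjusted p = 0.00147), 0.953 without the 2 farthest libraries and 0.920 over the 8 libraries (exact permutation test, adjusted p = 0.0108). Over those 8 rho was 0.810 and did not pass (exact permutation test, adjusted p = 0.063). In sham r was 0.615 and did not pass (n = 10, permutation adjusted p = 0.0978). Whether r differed between the groups was not tested. Between these pairs, r for mt-Nd2 and mt-Nd4 was 0.910 in HF-HI (rho 0.836, n = 11, permutation adjusted p = 0.00273) and 0.861 in sham (rho 0.855, n = 10, permutation adjusted p = 0.00845), and it was called in both groups with each library left out in turn. For mt-Nd1 and mt-Nd4 in HF-HI r was 0.724 (rho 0.618, n = 11, permutation adjusted p = 0.0325 for r and 0.0848 for rho). Over the 8 libraries these HF-HI values were 0.475 and 0.132 (exact permutation test, adjusted p = 0.328 and 0.797), but the 8 were left by removing the highest values of mt-Nd4, which narrows the range of the gene being correlated.

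mt-Nd6 followed mt-Nd2 closely in sham, with r = 0.925 (rho 0.939, n = 10, permutation adjusted p = 0.00273) and 0.881 without the 2 farthest libraries. In HF-HI r was 0.553 (n = 11, permutation adjusted p = 0.114) while rho was 0.836 (permutation adjusted p = 0.0127) with HF-HI replicate 9 at 12.33 for mt-Nd6 and at 13.63 for mt-Nd2. With mt-Nd1, mt-Nd6 had r = 0.722 in HF-HI (rho 0.809, n = 11, permutation adjusted p = 0.0214 for r and 0.0163 for rho). In sham that r was 0.410 (permutation adjusted p = 0.349). With mt-Nd4 and mt-Nd5 in HF-HI, rho was 0.700 for each (permutation adjusted p = 0.0499), while r was 0.265 and 0.310 and did not pass.

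**Figure D3:**
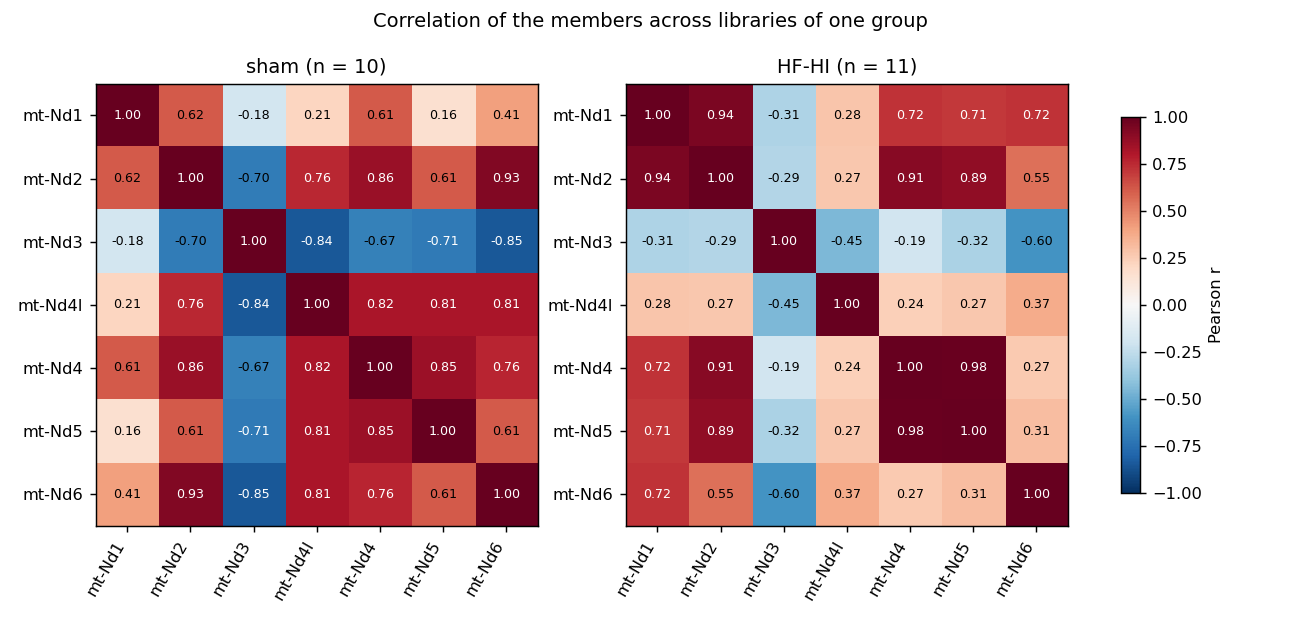
Pearson r between each pair of the 7 members across the 10 sham libraries (left) and the 11 HF-HI libraries (right), on a colour scale from −1 to 1. The mt-Nd3 row is negative in both groups, but none of its pairs passed the threshold in HF-HI. mt-Nd4 with mt-Nd5 is at 0.85 in sham and 0.98 in HF-HI, and mt-Nd4l is weakly related to the others over all 11 HF-HI libraries.

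The relation of mt-Nd4l to the others in HF-HI was weak over all 11 libraries. Over the 8 HF-HI libraries other than replicates 3, 4 and 11, its r was 0.848 with mt-Nd1, 0.901 with mt-Nd2 and 0.843 with mt-Nd6 (exact permutation test, adjusted p = 0.0133, 0.0133 and 0.0125). With mt-Nd3, mt-Nd4 and mt-Nd5 it was −0.712, 0.356 and 0.341 (exact permutation test, adjusted p = 0.0782, 0.475 and 0.494). By Spearman, rho was 0.857 with mt-Nd1 and with mt-Nd2 (exact permutation test, adjusted p = 0.0466 for each). With mt-Nd6 rho was 0.786 and did not pass (adjusted p = 0.069). mt-Nd4l was examined together with its nuclear copy. Annotated transcripts holding a stretch of at least 100 bases at 90% identity or more were found for 6 of the 7 members, all except mt-Nd1. Copies of mt-Nd3 (Gm28438, 99.7% identical over 345 bases), mt-Nd4l (Gm10222, 100% over 294 bases) and mt-Nd4 (Gm28439, 100% over 876 bases) lie side by side on chromosome 1, at chr1:24612775-24613119, chr1:24612407-24612700 and chr1:24611535-24612410 on the minus strand. For mt-Nd6 the copy Gm11408 was 93.6% identical over 519 bases, its full length. Only Gm10222 was among the genes of the table. Reads of mt-Nd4l and Gm10222 cannot be told apart over those 294 of 297 bases, so their separate values are uncertain. Reads of mt-Nd3 and of mt-Nd4 within the shared 345 and 876 bases may likewise be divided with their copies, which have no values here.

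Gm10222 held from 40.7% to 64.0% of the summed value of both genes in sham and from 40.0% to 61.6% in 10 of the HF-HI libraries. In HF-HI replicate 11 it held 85.1%: mt-Nd4l was at 8.76, the lowest of HF-HI, and Gm10222 at 11.27, the highest of all libraries. The sum of the 2 on the linear scale was 9.85 ± 0.434 in sham and 10.58 ± 0.525 in HF-HI on the log2 scale, a difference of 0.73 (SE 0.191, limma adjusted p = 0.00186), close to the 0.71 of mt-Nd4l alone. The sum followed mt-Nd4 in HF-HI with r = 0.939 (rho 0.873, n = 11, permutation adjusted p = 0.000507 over 8 tests), where mt-Nd4l alone gave 0.237 and Gm10222 alone 0.919 (rho 0.845, n = 11, permutation adjusted p = 0.000507). Without the 2 libraries farthest on mt-Nd4 the r of the sum was 0.829, and in sham it was 0.847 (rho 0.867, n = 10, permutation adjusted p = 0.00373). This sum was formed after the values of replicate 11 had been seen.

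**Figure D4:**
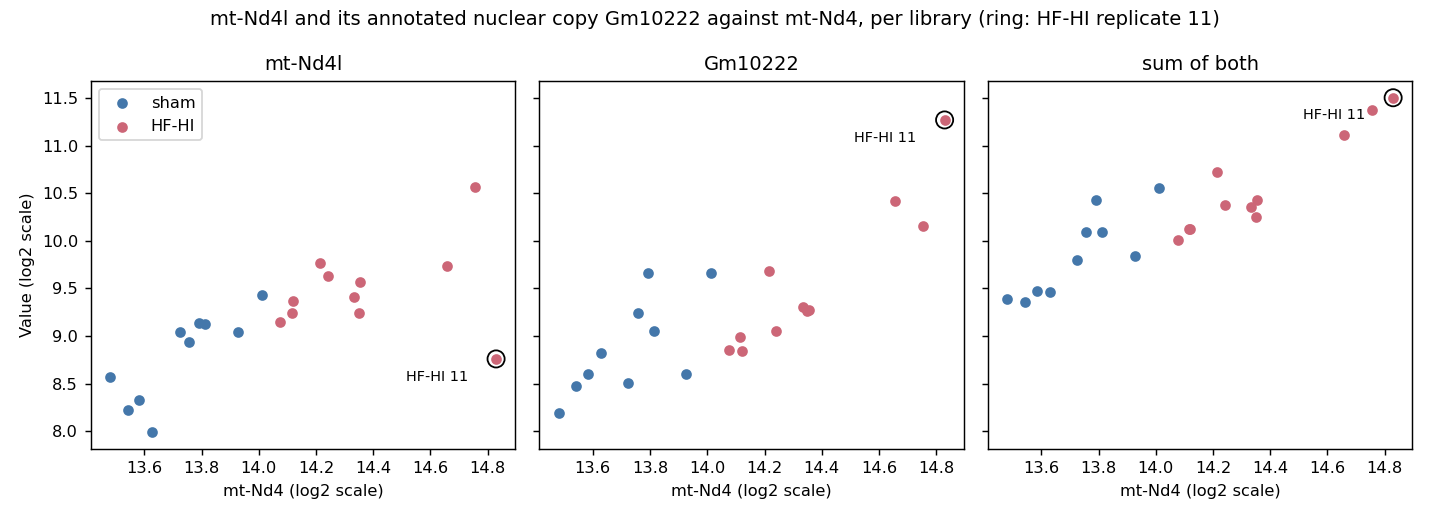
Values (log2 scale) of mt-Nd4l, of its copy Gm10222 and of the sum of both against mt-Nd4, 1 point per library, with HF-HI replicate 11 ringed. That library is low for mt-Nd4l at 8.76 and high for Gm10222 at 11.27, and its sum of 11.50 lies with the other libraries high in mt-Nd4.

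The values of mt-Nd6, the most scattered member, were set beside those of Gm42418. Because HF-HI libraries fell into 2 sets on Gm42418, no correlation over all 11 is given. In the 5 libraries with the higher Gm42418, mt-Nd6 ran from 10.27 to 12.33, and in the 6 with the lower Gm42418 it ran from 9.36 to 10.37, so the sets overlapped only between 10.27 and 10.37. mt-Nd1 and mt-Nd2 were likewise higher in the 5 libraries (medians 15.14 and 13.79) than in the 6 (14.78 and 13.21). Within the 6 libraries mt-Nd6 and Gm42418 had r = 0.083 (rho 0.086, exact permutation adjusted p = 0.951 over 7 members). In sham r was 0.641 (rho 0.588, n = 10, permutation adjusted p = 0.134 over 70 tests) and 0.366 without the 2 farthest libraries. The sham libraries with the highest mt-Nd6, replicates 7, 6 and 4 at 10.82, 10.76 and 10.63, were also the 3 highest for Gm42418.

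**Figure D5:**
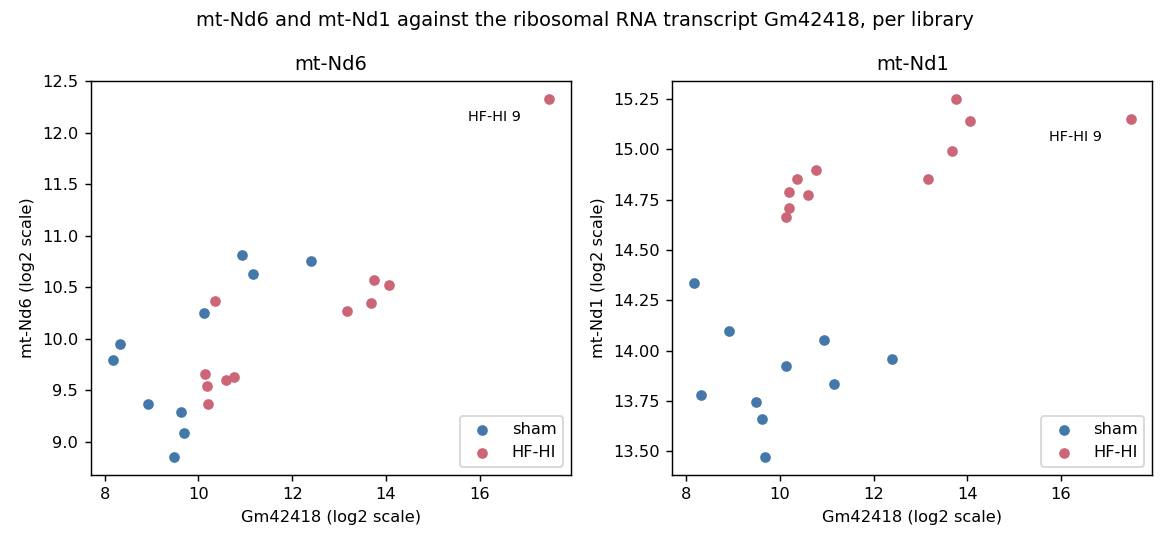
Values (log2 scale) of mt-Nd6 (left) and mt-Nd1 (right) against Gm42418, 1 point per library. For mt-Nd6 the ranges of the groups overlap and HF-HI replicate 9 is the highest library on both axes, whereas for mt-Nd1 all 11 HF-HI libraries lie above all 10 sham libraries.

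The mitochondrial ribosomal RNAs and relative depth moved with single members in the same family of 70 tests. mt-Nd1 followed mt-Rnr1 in both groups, with r = 0.786 in sham (rho 0.855, n = 10, permutation adjusted p = 0.0492) and 0.933 in HF-HI (rho 0.909, n = 11, permutation adjusted p = 0.0035), and at 0.910 and 0.901 without the 2 farthest libraries. mt-Nd2 followed mt-Rnr1 in HF-HI with r = 0.914 (rho 0.900, n = 11, permutation adjusted p = 0.0035). The other mitochondrial ribosomal RNA, mt-Rnr2, gave r = 0.882 with mt-Nd1 in sham (rho 0.891, n = 10, permutation adjusted p = 0.00945) but −0.618 in HF-HI (rho −0.436, n = 11, permutation adjusted p = 0.129). With mt-Nd6 it gave −0.842 in HF-HI (rho −0.755, n = 11, permutation adjusted p = 0.0411 for r and 0.0753 for rho), and −0.310 without the 2 farthest libraries. Relative depth was negatively related to 3 members in HF-HI by Pearson, of which only mt-Nd6 also passed by Spearman (permutation adjusted p = 0.0333). Its r was −0.797 with mt-Nd1 (rho −0.691, n = 11, permutation adjusted p = 0.0411 for r and 0.132 for rho). With mt-Nd2 it was −0.770 (rho −0.682, permutation adjusted p = 0.0492 for r and 0.138 for rho). With mt-Nd6 it was −0.780 (rho −0.818, permutation adjusted p = 0.0197 for r). Without the 2 farthest libraries these were −0.516, −0.685 and −0.684. Towards mt-Nd3 relative depth had the opposite sign in sham, at r = 0.792 (rho 0.782, n = 10, permutation adjusted p = 0.0492 for r and 0.0753 for rho). This r fell to 0.579 without the 2 farthest libraries. Depth was lower in HF-HI replicates 3, 9 and 11 (0.723, 0.573 and 0.548) than in the other 8 (at least 1.04). Each HF-HI correlation with depth over all 11 libraries thus spans 2 separate sets.

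Levels were compared between members only per length, as the value minus log2 of the transcript length in kilobases. In sham mt-Nd3 was highest at 15.90, followed by mt-Nd1 at 13.95, mt-Nd4 at 13.26, mt-Nd2 at 12.26, mt-Nd5 at 12.08, mt-Nd6 at 10.83 and mt-Nd4l at 10.53. Neighbours in this order kept it in all 10 libraries except mt-Nd2 over mt-Nd5 (8 of 10) and mt-Nd6 over mt-Nd4l (7 of 10), whose mean gaps of 0.19 and 0.29 were smaller than their SDs of 0.289 and 0.433. In HF-HI the order was the same down to mt-Nd5, with mt-Nd2 above mt-Nd5 in 11 of 11 libraries, and mt-Nd4l at 11.24 stood over mt-Nd6 at 11.15 in 9 of 11. The lead of mt-Nd3 over mt-Nd1 shrank from 1.95 in sham to 0.74 in HF-HI. mt-Nd4l holds the 7 bases shared with mt-Nd4, and its level is further lowered by any reads given to Gm10222. Across the 13 mitochondrial mRNAs, the level per kilobase in sham and the difference between groups had rho = −0.53, and across the 7 members alone −0.11, both given as descriptions of genes from the same libraries.

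The nuclear genes of the same enzyme did not follow the mitochondrial ones. Among all genes of the table, 32.6% were higher and 33.6% were lower. Of 38 listed nuclear subunits 31 were tested, and 1 was higher, 21 were lower and 9 did not pass, with a median difference of −0.18 log2 units. With the GC trend removed, 0 were higher and 23 were lower (limma, adjusted p under 0.05), with a median of −0.21. Of the catalytic core subunits, 5 of 6 tested were lower, and the largest decreases were those of Ndufv1, which binds NADH (−0.29, limma adjusted p = 0.000202), and Ndufs1, the largest iron-sulphur subunit (−0.25, limma adjusted p = 1.38e-05). Of the accessory subunits, 16 of 25 tested were lower, led by Ndufb11 at −0.47 (limma adjusted p = 3.42e-07) and Ndufa12 at −0.42. Ndufa5 was the single subunit that was higher, at 0.20 (limma adjusted p = 0.00569, 11 of 11 libraries above the sham median), and lost its call once the GC trend was removed (adjusted p = 0.0525).

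Genes that make, process or accompany mitochondrial RNA were measured less completely. Their counts are to be read beside 32.6% of all genes higher and 33.6% lower. None of the 21 listed complex I assembly factors was among the genes tested. Of 22 genes of mitochondrial transcription and DNA maintenance 2 were tested, and both were lower: Rrm2b, a subunit of ribonucleotide reductase, at −0.11 and Polg, the catalytic subunit of the mitochondrial DNA polymerase, at −0.10 (limma adjusted p = 0.00624 and 0.0111). With the GC trend removed Rrm2b was at 0.016 (limma adjusted p = 0.716). Of 24 genes of mitochondrial RNA processing 3 were tested. Lrpprc, which stabilizes mitochondrial mRNAs, was lower at −0.18 (limma adjusted p = 3.73e-05), and Fastk, whose mitochondrial form is required for mt-Nd6 mRNA, was higher at 0.11 (limma adjusted p = 0.0339) but was −0.11 with the GC trend removed (limma adjusted p = 0.00327). Of 10 genes chosen as measures of mitochondrial content, 2 were higher and 6 were lower. Cs, citrate synthase, was higher at 0.50 and the matrix chaperone Hspd1 at 0.13 (limma adjusted p = 0.0393). The outer membrane pore Vdac3 and the import receptor Tomm20 were both lower at −0.33. Once the GC trend was removed, Vdac3 was at −0.22 and Hspd1 at 0.10, and neither was called (limma adjusted p = 0.0693 and 0.117).

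The genes outside mitochondrial DNA whose deviations from the group mean were most like those of each member were taken over all 21 libraries, as a description that shares the libraries, their depth and their base composition. For mt-Nd6 these were the small nucleolar RNA gene Gm22988 (r = 0.947), Ncl, nucleolin (0.937), and Cfap36 (0.934), the highest r of any member. HF-HI replicate 9 lay at 12.33 for mt-Nd6, against a group mean of 10.20, so that library weighs heavily in these r. They were not computed without it. mt-Nd3 was nearest to Prdx3, a mitochondrial peroxiredoxin (0.828), H2afz (0.827) and the complex I subunit Ndufb10 (0.791). mt-Nd2 was nearest to Gm10222 (0.894), Cdh7 (0.839) and Pnisr (0.833), mt-Nd4 to Baz2b (0.858), Gm10222 (0.856) and Tab2 (0.814), and mt-Nd5 to Atp1b2 (0.877), the synaptic vesicle gene Syn1 (0.875) and Enah (0.870). Reads of Gm10222 cannot be told apart from those of mt-Nd4l over 294 bases, so its place among genes outside mitochondrial DNA is uncertain. mt-Nd1 and mt-Nd4l had looser matches, led by Ei24 at 0.808, Kbtbd7 at 0.797 and Rnf146 at 0.788 for the former and Map2k7 at 0.765 and Thnsl1 at 0.678 for the latter.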

How the data were processed

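Cortical RNA-seq libraries, 10 sham and 11 HF-HI, were analysed, grouped by their labels. The authors depleted ribosomal RNA, built strand-specific libraries, mapped reads to mm10 with STAR, quantified transcripts with eXpress and normalized with DESeq2 (versions not given in the sources used here). The authors deposited one variance-stabilized value per gene and library, in log2 units, so counts were not tested and total depth is unknown. At low values this scale is compressed, which understates fold changes. eXpress can split reads between identical copies.

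Symbols were matched for 5539 genes, and positions, lengths and GC content were taken from GENCODE vM21. HF-HI and sham were compared over the whole table by limma (version 3.58.1, lmFit and eBayes with trend, under R 4.3.3), Benjamini-Hochberg adjusted, threshold 0.05, two-sided. Pair differences and correlations used permutation tests with 100000 resamples in Python 3.11.15 (scipy 1.17.1, numpy 2.4.6, statsmodels 0.14.6, pandas 2.3.3, matplotlib 3.10.9). GC trends were removed per library with a lowess curve of span 0.3. Relative depth came from the spacing of the linear values between 500 and 600. Copies were searched with blastn. Each test was checked on simulated data.

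The members and lists were chosen with earlier results of these data known. Named were every member, every other mitochondrial mRNA and ribosomal RNA gene, up to 2 genes in each direction per pathway list, and the 3 genes most like each member, of which 1 is not reported here. Gm10222, the only copy in the table, is also described. Alternatives were an adjusted p of 0.1, a minimum difference of 0.25, no variance trend, a Wilcoxon test, median centring, quantile normalization, leaving out the lowest quartile of genes, a replicate block, removal of the GC trend and leaving out each library. Covariates for depth and Gm42418, the sum with Gm10222 and the omission of 3 HF-HI libraries were chosen after seeing the data.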

Additional observations from a re-analysis of the deposited data

Results flagged for a closer look

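The highest of the 10 sham libraries for mt-Nd5, replicate 4, was at 13.41 and lay farther from the others than the spread of the group allows under Dixon's test. It was also the shallowest sham library (relative depth 0.580) and the highest in sham for mt-Nd4, at 14.01, and mt-Nd4l, at 9.43. No other sham value of the 7 members tested was set apart in this way, and chance sets apart about 1 group in 20. Only sham was tested in this way. HF-HI replicate 9 for mt-Nd6, at 12.33 where the next highest HF-HI library was at 10.57, was therefore not tested.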

How the results depend on the processing

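The 5 members that were higher in HF-HI kept their direction and stayed past the threshold under all alternatives run and with each library left out. mt-Nd3 did not: its difference of −0.18 was below a minimum difference of 0.25, was reversed at 0.032 with the GC trend removed and 0.033 with that and the replicate block, and was −0.095 with Gm42418 as a covariate, and in these 4 settings 0 members were lower. mt-Nd6 was past the threshold at 0.74 with relative depth as a covariate and reversed at −0.44 with Gm42418 as a covariate. The cause was not tested in any of these cases.

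Replicate numbers did not pair the samples: correlations of same-numbered libraries ran from −0.310 to 0.364, 4 of 10 were over 0.1, and 0 sham libraries correlated best with their own number. Under the replicate block, where HF-HI replicate 11 has no partner, the counts stayed at 5 and 1, and mt-Nd6 minus mt-Nd2 was −0.83 (adjusted p = 0.0634) or −0.81 with the GC trend removed as well.

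mt-Nd6 minus mt-Nd1 (−0.71) passed under the Wilcoxon test. With the trend on Gm42418 removed, the change passed for mt-Nd6 against mt-Nd1 (−1.36), mt-Nd4l (−0.93), mt-Nd4 (−0.99) and mt-Nd5 (−0.91), and changed sign for mt-Nd1 minus mt-Nd2 (0.0011), mt-Nd6 minus mt-Nd3 (−0.35) and mt-Nd4l minus mt-Nd4 (−0.058). Leaving out single libraries gave −0.90 to −0.62 for mt-Nd6 minus mt-Nd1 (past the threshold without sham replicate 8, 9 or 10 or HF-HI replicate 9), −0.58 to −0.30 for mt-Nd6 minus mt-Nd4l, −0.55 to −0.22 for mt-Nd6 minus mt-Nd4, −0.50 to −0.16 for mt-Nd6 minus mt-Nd5, 0.21 to 0.43 for mt-Nd1 minus mt-Nd4l (past it without sham replicate 9) and −0.0099 to 0.19 for mt-Nd4l minus mt-Nd4 (negative without sham replicate 9 and, at −0.00093, without HF-HI replicate 4).

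With the GC trend removed, 5 pairs were correlated in sham. In sham r fell below the threshold for mt-Nd2 with mt-Nd4l (0.685) and mt-Nd4 (0.752), mt-Nd3 with mt-Nd5 (−0.445), mt-Nd4l with mt-Nd4 (0.615) and mt-Nd5 (0.677), and mt-Nd4 with mt-Nd6 (0.523), and in HF-HI for mt-Nd1 with mt-Nd4 (0.699), mt-Nd5 (0.711) and mt-Nd6 (0.610). Without the 3 HF-HI libraries high in mt-Nd4 it did so for mt-Nd1 with mt-Nd4 (0.132) and mt-Nd5 (0.187), and mt-Nd2 with mt-Nd4 (0.475) and mt-Nd5 (0.460). With single libraries left out, r ran from 0.699 to 0.829 (mt-Nd2 and mt-Nd4l), −0.851 to −0.668 (mt-Nd3 and mt-Nd5), 0.711 to 0.856 (mt-Nd4 and mt-Nd6) and 0.758 to 0.886 (mt-Nd4l and mt-Nd4) in sham, and from 0.585 to 0.890 (mt-Nd1 and mt-Nd4) and 0.588 to 0.832 (mt-Nd1 and mt-Nd5) in HF-HI, each losing its call in at least 1 of these.

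Among the lists, a minimum difference of 0.25 left 2 nuclear core and 9 accessory complex I subunits lower and 0 accessory ones higher, 0 genes called for transcription and RNA processing, 1 higher and 2 lower for mitochondrial content and 0 other mitochondrial mRNAs lower. Accessory subunits lower numbered 10 without the lowest quartile of genes. Accessory subunits higher numbered 0 without that quartile and with the GC trend removed, with or without the replicate block, and 2 with the replicate block, at an adjusted p of 0.1 or without sham replicate 9 (1 to 2). Of the RNA processing genes 0 were higher under the Wilcoxon test, both rescalings, the quartile filter, the replicate block, GC removal and the depth covariate, 2 at an adjusted p of 0.1 or with the Gm42418 covariate, and 0 to 2 with single libraries left out, and 2 were lower with the GC trend removed. Transcription genes lower numbered 1 with the GC trend removed, the quartile filter or the Gm42418 covariate. Content genes higher numbered 1 under the Wilcoxon test, both rescalings, GC removal and the Gm42418 covariate, and 1 to 3 with single libraries left out. Other mitochondrial mRNAs lower numbered 2 under quantile normalization and 0 with the GC trend removed.

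Total depth, reads shared with copies, strand use in counting and the base composition trend limit what these values show. Library properties differ between the groups and cannot be told apart from HF-HI where they do not overlap.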
